A study of Drosophila melanogaster with 3 samples.

Results

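The 1998 summits described here are the peaks of Ultraspiracle (USP) on the X chromosome of Drosophila melanogaster. They are the rows on chrX of the authors' list of optimal IDR-thresholded peaks (IDR, the irreproducible discovery rate, ranks peaks by how well they recur), which held 11195 summits on all chromosome arms, 9197 of them autosomal. Binding was measured by chromatin immunoprecipitation and sequencing in 1 group of 3 biological replicates. Each replicate was a pool of male and female wandering larvae of the third instar, of unknown age, from a strain named usp-GFP that stably expressed usp with eGFP fused to its C terminus, and the antibody was directed against GFP. Whether the tagged usp was an added copy is not in the labels. Whole animals were used, so all larval cell types are mixed: fewer cells of a type and less binding per cell cannot be told apart. The signal of a summit is the score that the authors' peak caller gave it, and ranks run from 1, the strongest of the 11195, downward. A rank percentile runs from 0 for the weakest to 100 for the strongest summit of a list. Each replicate's own list held 30000 rows and was cut to its 11195 strongest before comparison.

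USP is the fly member of the retinoid X receptor family. It pairs with the ecdysone receptor EcR, and the heterodimer binds inverted repeats of a hormone receptor half-site and switches early genes of the molting and metamorphosis cascade on when the steroid 20-hydroxyecdysone rises, as it does at the end of larval life. The X chromosome carries several genes of that cascade, among them usp itself, the zinc-finger gene br and the nuclear receptor gene Hr4. Males have a single X and females a pair. Male flies balance this with the MSL complex, which is built with the noncoding RNAs roX1 and roX2 and raises transcription of the male X, starting from entry sites rich in alternating G and A.

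The summits with a match to the palindromic ecdysone response element, an inverted repeat of the half-site with a spacer of a single base, are shown first because they carry the known binding sequence of the EcR and USP pair. Within 100 bp of a summit, 8 of the 1998 X summits held a match. Each line below gives the plus strand of dm6 in lower case with the 13 matched bases in capitals and 10 bases on each side.
br intron, chrX:1577183-1577215: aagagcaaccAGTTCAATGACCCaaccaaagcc
intergenic near Bcat, chrX:13394499-13394531: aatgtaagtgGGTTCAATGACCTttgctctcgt
mamo intron, chrX:13961343-13961375: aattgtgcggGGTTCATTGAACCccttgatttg
Sec16 promoter, chrX:12596984-12597016: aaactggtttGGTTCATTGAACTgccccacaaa
Ypel promoter, chrX:10209947-10209979: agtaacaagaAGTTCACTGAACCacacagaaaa
kirre and CG32795 coding sequence, chrX:2788460-2788492: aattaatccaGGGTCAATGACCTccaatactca
Rala intron, chrX:3710876-3710908: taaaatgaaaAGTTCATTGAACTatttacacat
Hr4 intron, chrX:1949615-1949647: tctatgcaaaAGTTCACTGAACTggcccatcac
The match nearest to its summit lay in intergenic sequence near Bcat, where it was centred 0 bp from the base called as summit, and the farthest lay in mamo at 78 bp. The br match belonged to the strongest of the 8 summits, with rank 257 in the IDR-thresholded list and ranks 244, 235 and 266 in replicates 1, 2 and 3. The weakest was the summit in Hr4, with rank 5698 and replicate ranks of 4103, 7279 and 5978. The other summits with a match had ranks of 730 (Bcat), 918 (mamo), 1534 (Sec16), 2021 (Ypel), 2497 (CG32795, which lies inside kirre) and 3181 (Rala), so they spread from the strong end to the middle of the list. All 8 were found again in each replicate.

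The X summits of highest signal are shown next because, unlike those above, they held none of the motifs searched in the windows printed. The first lay in a promoter of Mur2B that is also inside the overlapping gene br, the next in an intron of Hr4, and the last in a promoter of Ptpmeg2, which encodes a protein tyrosine phosphatase. Each is given from 50 bases before to 50 bases after the summit, on the plus strand of dm6.
Mur2B and br, chrX:1618196-1618296: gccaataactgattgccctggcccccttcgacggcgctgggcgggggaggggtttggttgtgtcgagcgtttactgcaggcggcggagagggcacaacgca
Hr4, chrX:1951573-1951673: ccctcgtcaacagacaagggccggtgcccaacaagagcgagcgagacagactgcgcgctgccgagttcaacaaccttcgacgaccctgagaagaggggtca
Ptpmeg2, chrX:9646122-9646222: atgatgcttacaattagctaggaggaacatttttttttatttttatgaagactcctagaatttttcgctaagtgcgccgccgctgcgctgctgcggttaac
No match says only that these letters are not in the window.

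Alternating tracts were more common at X summits than at autosomal ones, and the 2 longest are shown for that reason, with the tract in capitals. The GA tract of 28 bases lay in the 3′ UTR of CanA-14F, a catalytic subunit gene of calcineurin, under a summit of rank 7451. The TG tract of 47 bases lay in an intron of Imp, an RNA-binding protein gene, under a summit of rank 6047.
CanA-14F, chrX:16562392-16562515: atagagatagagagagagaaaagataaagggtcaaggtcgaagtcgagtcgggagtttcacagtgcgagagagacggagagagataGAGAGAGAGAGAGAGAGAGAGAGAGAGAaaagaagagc
Imp, chrX:10802976-10803127: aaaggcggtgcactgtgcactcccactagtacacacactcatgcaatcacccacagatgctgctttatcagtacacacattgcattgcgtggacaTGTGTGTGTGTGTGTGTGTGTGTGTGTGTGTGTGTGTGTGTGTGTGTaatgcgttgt

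Summits were about as dense on X as on the autosomes. In the IDR-thresholded list X held 17.8% of the summits and 17.6% of the length of the arms, or 84.9 summits per Mb on X and 83.4 on the autosomes. The density on X was 82.8, 85.2 and 82.8 per Mb in replicates 1, 2 and 3, and on the autosomes it was 83.8, 83.3 and 83.8. X was thus the higher in replicate 2 only, and its mean lay inside the range of the 4 large autosomal arms, which ran from 80.2 to 89.5 in the IDR-thresholded list. The mean difference was −0.0131 ± 1.68 per Mb (SD, n = 3 replicates), less than the spread between replicates (exact two-sided sign-flip test over replicates, p = 1.0). This test cannot give less than 0.25 with 3 replicates, so no comparison below can pass 0.05. It gives 0.25 whenever the 3 replicates agree in direction, whatever the spread. Its p-values thus mainly reflect agreement in direction, among these 3 samples only. Over the 25 comparisons of X with the autosomes made across the replicates, a p of 0.25 became 0.391 after Benjamini-Hochberg adjustment. The ratio of densities depended on how far down the list it was taken. It was 0.893 among the 5597 strongest of the list (0.910 ± 0.0134 over replicates) and 1.14 in the full lists of 30000 (1.14 ± 0.0263), so X was poorer in strong summits and richer in weak ones.

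X summits had lower signal than autosomal summits. Their median rank percentile was 45.1 against 51.1, and their median signal was 687 against 764, on the scale of the caller's score. In replicates 1, 2 and 3 the X median was 46.5, 46.1 and 47.1, and the autosomal median was 50.8, 50.9 and 50.8. X was lower in all 3 replicates and lay below each of the 4 large autosomal arms of the same replicate. The mean difference was −4.27 ± 0.573 percentile points (SD, n = 3, exact sign-flip p = 0.25). In a pool of males and females X is present in fewer copies than the autosomes, and the labels do not give the ratio of sexes, so the number of copies and the binding per copy cannot be told apart in this difference. Among the 5597 strongest summits of the list the medians were closer, 49.1 against 50.1, and over the replicates the difference there was −2.42 ± 0.913.

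Over the list as a whole, the share of summits that lay on X grew as the signal fell, but its very top went against this order. With each replicate's list divided by rank into 10 slices of equal size, the share was 15% ± 0.558 (SD, n = 3) in slice 1, the strongest, 16.9% ± 0.682 in slice 5 and 19.3% ± 0.967 in slice 10. Among the rows of the replicates' full lists below the 11195 strongest, X took 20.8% ± 0.410. No X summit was among the 10 strongest of the IDR-thresholded list, 17 were among the first 100, 36 among the first 200 (18%) and 143 among the first 1000 (14.3%). Among the first 200 the share was 19%, 19% and 18% in replicates 1, 2 and 3, above that of slice 1 as a whole. At the lower end the X summits of rank 11185, 11187 and 11193 were just inside the list, with signals of 365.5, 365.5 and 365.3, and those of rank 11197, 11202 and 11204 in the pooled list were just outside, with 365.1, 364.8 and 364.8. The 3 inside lay in a promoter near CG15211, in 3′ UTR sequence inside rush and mei-38 and in a promoter of CG1637, and each had a summit within 100 bp in 1 replicate only.

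**Figure D1:**
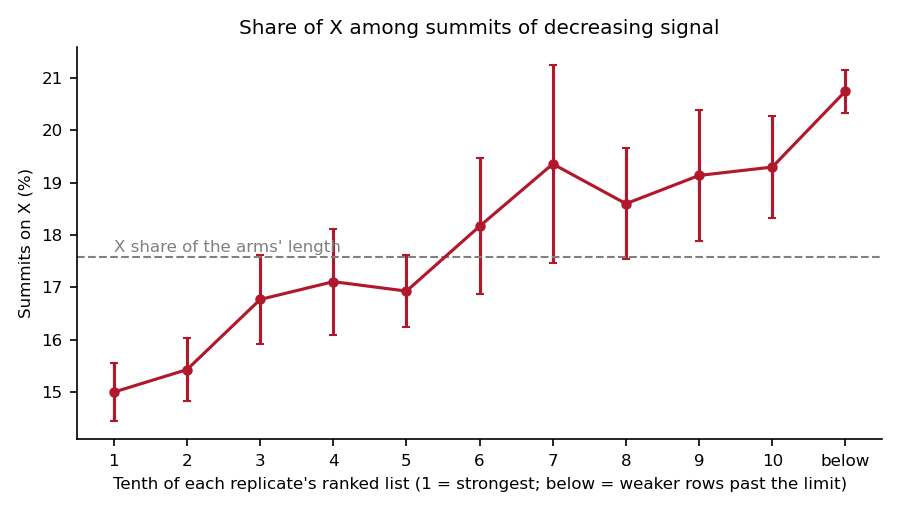
Share of summits on X (%, y axis) in 10 slices of the replicates' lists by decreasing signal and in the weaker rows past the 11195 strongest (x axis); points and bars are the mean and SD of 3 replicates and the dashed line is the X share of the arms' length, 17.6%. The share rises from 15% in the strongest slice to 20.8% in the weaker rows.

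Of the 15 strongest X summits, 8 lay in br or Hr4, genes that ecdysone is known to induce. The summit at position 1618246, 91 bp from a start site of Mur2B and inside br, had a signal of 23563 and rank 13, with ranks 13, 13 and 12 in replicates 1, 2 and 3. The strongest summit of Hr4, in an intron 9683 bp from the nearest start site, had rank 14 and replicate ranks of 16, 9 and 17. The Ptpmeg2 promoter summit had rank 18 (14, 22 and 20 in the replicates). The Mur2B and Hr4 summits were among the strongest 20 of every replicate, while in replicate 2 another Hr4 summit, at rank 20, stood ahead of Ptpmeg2.

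Further down, br and Hr4 held most of the X summits to rank 55, and none of the X summits listed after it. The br locus returned at ranks 24, 42 and 51, and Hr4 at ranks 26, 41 and 55. The promoter of sgg, which encodes the GSK-3 kinase of the Wnt and other pathways, held the summit of rank 25. The remaining summits of the strongest 15 lay in prage (rank 54), in an intron of mnb, a DYRK family kinase gene (62), in intergenic sequence 2813 bp from CG3842 (69), in the coding sequence of bif, an actin-binding cytoskeletal protein gene (89), and in an exon of lncRNA:CR44619 (97). Their replicate ranks ran from 20 for sgg in replicate 1 to 131 for lncRNA:CR44619 in replicate 3, where this last summit was less strong than in replicate 1, at 63.

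Genes of X were more often bound than autosomal ones. A protein-coding gene was counted as bound if it, or the 1000 bp upstream of it, held a summit. By this count 883 of 2196 X genes (40.2%) were bound, against a background of 35.8% over all 13945 coding genes and 35.0% on the autosomes. In replicates 1, 2 and 3 the share was 39.2%, 38.0% and 39.9% on X and 35.2%, 33.1% and 36.3% on the autosomes. X was the higher in all 3 replicates and stood above each of the 4 large autosomal arms of the same replicate, with a mean difference of 4.14 ± 0.714 percentage points (SD, n = 3, exact sign-flip p = 0.25). The difference was 0.311 percentage points among the 5597 strongest summits (0.631 ± 0.445 over replicates), and 2.92 (1.89 ± 0.848 over replicates) when a summit within 500 bp of a start site of the gene was required.

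X genes were also longer, with a median of 2521 bp against 2102 bp. Splitting all coding genes into 4 classes of equal size by length, a split chosen after the data were seen, gave a difference that grew with length. Among genes under 1179 bp, X had fewer bound genes in all 3 replicates, by −3.14 ± 1.59 percentage points. In the next classes the difference was 0.916 ± 0.270 and 2.65 ± 0.884, and among genes of 4998 bp or more it was 4.87 ± 0.604. Of these longest genes 62.1% were bound on X and 56.0% on the autosomes.

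**Figure D2:**
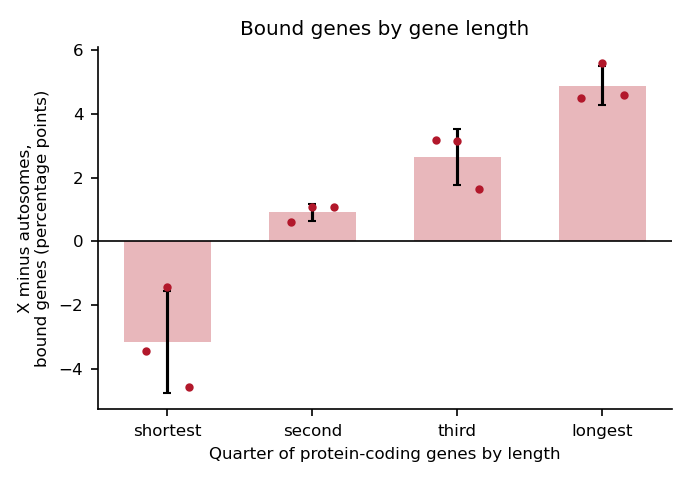
Difference between X and the autosomes in the share of protein-coding genes holding a summit (percentage points, y axis) in 4 classes of gene length (x axis); bars and error bars are the mean and SD of 3 replicates and points are replicates. The difference is below 0 in the shortest class and 4.87 in the longest.

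The X genes with most summits were led by the br region and Hr4. Mur2B (FBgn0025390, chrX:1523554-1668788, minus strand), a mucin-related gene, held 31 summits, and 32, 37 and 35 in replicates 1, 2 and 3. The gene br (FBgn0283451, chrX:1575132-1664869, plus strand), an early ecdysone-response transcription factor gene, lies inside it and held 24 summits, all of them shared with Mur2B. A summit in shared sequence cannot be given to either gene. Hr4 (FBgn0264562, chrX:1941940-2007956) held 29 summits, and 30, 27 and 26 in the replicates.

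Outside the hormone cascade, CG1677 and Raf, the MAP kinase kinase kinase gene of receptor tyrosine kinase signalling, held 26 summits each. Tlk, a chromatin-associated kinase gene, held 23, and Mnt, whose product opposes Myc, held 21. The gene prage held 19, kirre, an adhesion gene of myoblast fusion and the longest of these at 394149 bp, held 18, and Tis11, an mRNA decay factor gene, and sgg held 16 each. RhoGAP18B, mamo (a zinc-finger protein gene) and Smr, which encodes a corepressor of EcR, held 15 each, and NFAT held 14. Replicate counts differed by 6 summits at most for any of the 15 genes, as CG1677 with 21, 27 and 26 and kirre with 17, 20 and 14 show.

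**Figure D3:**
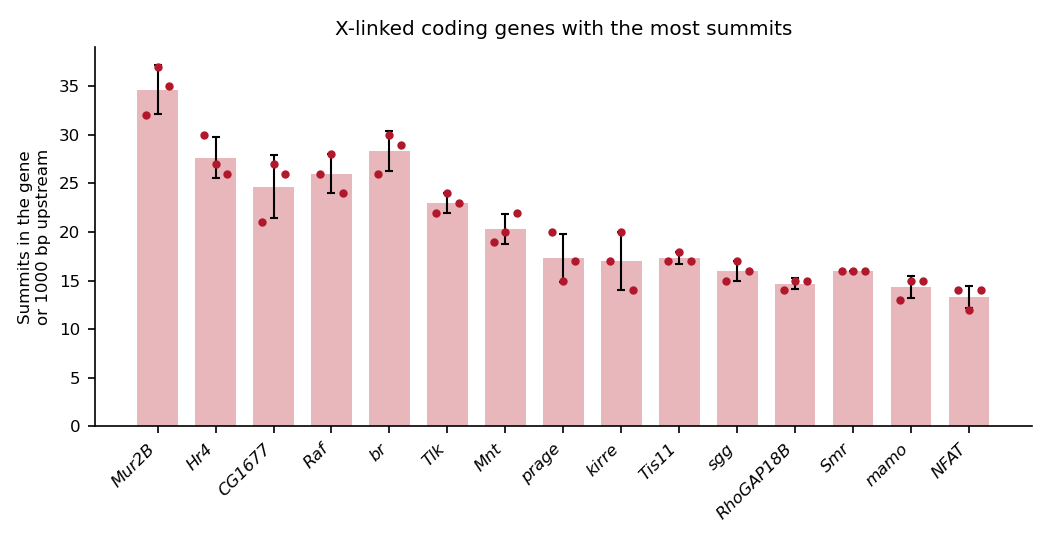
Number of summits in the gene or 1000 bp upstream (y axis) for the 15 X-linked coding genes with most summits in the IDR-thresholded list (x axis); bars, error bars and points are the mean, SD and values of the 3 replicates. Mur2B leads with 32 to 37 summits per replicate, and br lies inside Mur2B and shares its summits.

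Along the chromosome, summits were densest in the distal part, near the tip where the numbering starts, though the outermost bin, chrX:1-1000000, held only 53. The 1-Mb bins with most summits were chrX:2000001-3000000 with 156, where Raf held most, chrX:1000001-2000000 with 143, where Mur2B held most, and chrX:13000001-14000000 with 131, where mamo held most. In replicates 1, 2 and 3 the first of these held 153, 160 and 143 summits. Fewest lay at the proximal end, toward the centromere: 2 in the last, partial bin from 23000001 to 23542271, 10 in chrX:22000001-23000000 and 28 in chrX:20000001-21000000. CG17167, CG17600 and RhoGAP19D, with 1, 2 and 10 summits, held most in these bins. The longest stretch with no summit ran over 813228 bp from 21630034 to 22443262, and the outermost summits lay at 175732 and 23071559.

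The first 4 Mb, a limit chosen after the data were seen, held 461 summits, or 23.1% of the X summits in 17.0% of its length. Their density was 115.2 per Mb against 78.7 per Mb on the rest of X, and in replicates 1, 2 and 3 it was 113, 121 and 109 against 76.6, 77.9 and 77.5. The density was also higher per annotated start site, 0.680 against 0.491. This stretch holds br, Hr4, usp, Raf, sgg, Tlk and Mnt, and held 11 of the 17 X summits among the strongest 100. Its summits differed from the autosomal median rank percentile by 0.153 ± 1.76 points over the replicates and those of the rest of X by −5.41 ± 0.224, which is larger than the spread. In the IDR-thresholded list itself these differences were −2.67 and −7.26.

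Several summits often shared an interval, the stretch the caller reported as bound. The 1998 X summits lay in 1565 intervals, of which 322 held more than 1 and together 755 summits. The interval with most summits covered 12490 bp at the start of Hr4 (chrX:1941053-1953542) and held 15, with 16, 13 and 13 in replicates 1, 2 and 3. The next held 7 in mnb, and those in Raf, in the Polycomb-group gene ph-d and over the noncoding genes lncRNA:Vinr and lncRNA:CR44619 held 6 each. There were 1.28 summits per interval on X and 1.25 on the autosomes. Over the replicates X was higher by 0.00916 ± 0.00356 (SD, n = 3, exact sign-flip p = 0.25), and lower by −0.00496 in the full pooled list.

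By class of sequence, X summits lay more often in introns and less often between genes. Introns held 44.3% of X summits and 41.5% of autosomal ones, and in replicates 1, 2 and 3 the share was 45.6%, 45.5% and 44.9% on X against 41.1%, 41.7% and 40.9%. X was higher in every replicate and above each of the 4 large arms, by 4.08 ± 0.375 percentage points. Intergenic sequence held 6.91% against 10.3%, and X was lower in every replicate by −3.51 ± 0.393 points. The autosomal arms differed widely, from 7.44% ± 0.285 to 14.8% ± 0.723 over the replicates, and X at 6.72% ± 0.158 was close to the lowest of them. The exact sign-flip p was 0.25 for each. Introns, however, make up 43.4% of X and 38.6% of the autosomes, and intergenic sequence 22.6% and 28.2%. Set against that sequence, introns were occupied at 1.02 times their share on X and 1.07 times on the autosomes, and intergenic sequence at 0.306 and 0.366 times.

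Promoters, within 500 bp of a start site, held 863 X summits, 43.2% against 43.0% on the autosomes. The replicates disagreed in direction, with 42.1%, 42.3% and 42.9% on X and 43.9%, 42.0% and 44.0% on the autosomes, a difference of −0.842 ± 1.05 points that is within the spread (exact sign-flip p = 0.5). Among the 5597 strongest summits the promoter share was lower on X, 37.8% against 42.4%, and the intron share was 50.3% against 42.8%. In the IDR-thresholded list the promoter summits of X also had lower signal than those of the autosomes: their median rank percentile was 40.1 on X and 50.3 on the autosomes. That gap of −10.21 compares with −7.96 for intergenic and −2.22 for intron summits. Over the replicates the gaps were −6.12 ± 1.10, −5.07 ± 1.72 and −2.85 ± 0.541, and in replicate 3 the intergenic gap was the wider, so promoters and intergenic summits were not separated, and no test between classes was made. The 3′ UTR, a minor class, held 42 X summits, 2.10% against 1.31%, and X was higher in all 3 replicates. This sequence is also a larger part of X, 5.92% against 4.11%, so its occupancy was 0.355 times its share on X and 0.317 times on the autosomes, and that of promoters 3.43 and 3.13 times.

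**Figure D4:**
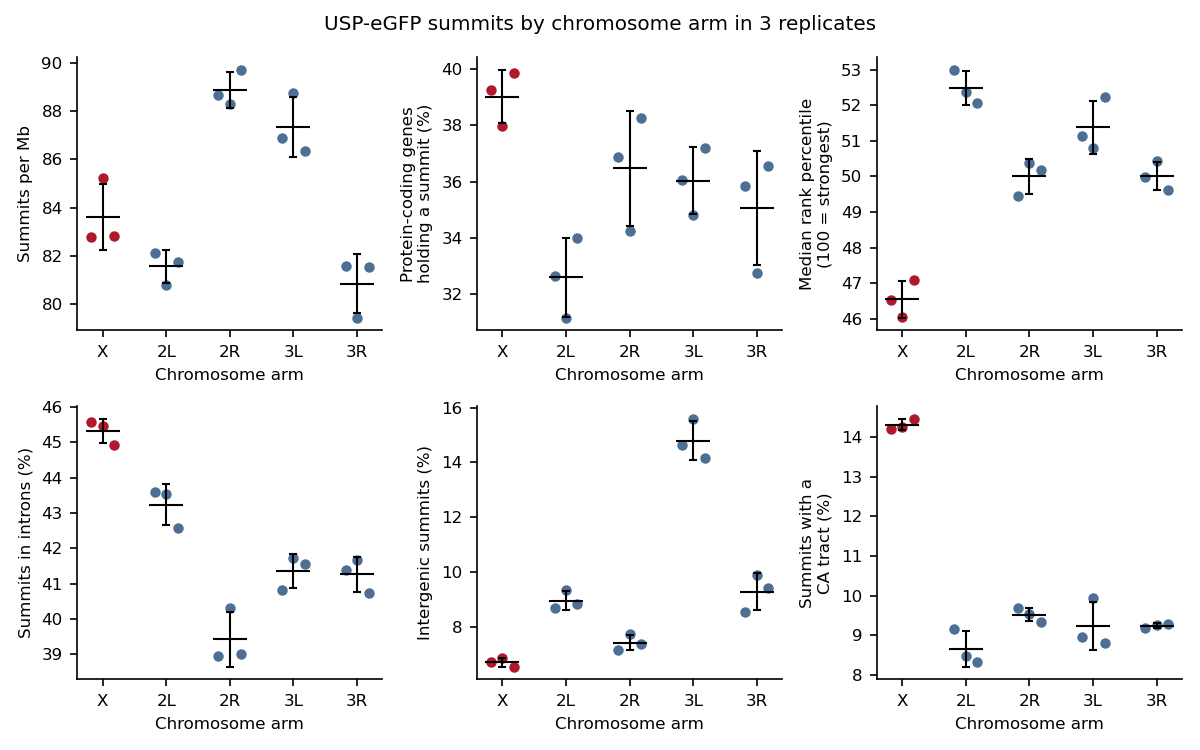
Measures of the summits (y axes, with units) on X and on the 4 large autosomal arms (x axis); points are the 3 replicates, and the black lines are their mean and SD. Compared within the same replicate, X lies inside the range of the other arms for summits per Mb. It lies outside that range for bound genes, median rank percentile, intron share, intergenic share and CA tracts. The y axes do not start at 0.

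Alternating tracts were more frequent at X summits than at autosomal ones, and on the X chromosome as a whole. A CA tract, CACACACA on either strand within 100 bp of the summit, was found at 287 X summits, or 14.4% against 9.10% on the autosomes. In replicates 1, 2 and 3 the share was 14.2%, 14.3% and 14.5% on X and 9.23%, 9.34% and 8.97% on the autosomes, with no overlap. The difference was 5.13 ± 0.314 percentage points (SD, n = 3, exact sign-flip p = 0.25). Of all windows of the same length along the arms, 5.76% held the tract on X and 3.73% on the autosomes. Summits therefore held it 2.49 ± 0.0231 times as often as windows on X and 2.46 ± 0.0509 times on the autosomes, a difference within the spread.

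A GA tract, GAGAGAGA on either strand, lay near 120 X summits, 6.01% against 4.40%. The replicate shares were 6.0%, 6.33% and 6.05% on X and 4.06%, 4.78% and 4.30% on the autosomes, again with no overlap, and the difference was 1.75 ± 0.197 points (exact sign-flip p = 0.25). Here too the windows of X held more, 1.53% against 1.04%. The ratio of summits to windows was 4.0 ± 0.116 on X and 4.21 ± 0.353 on the autosomes and differed in direction between replicates. Tracts of 12 bases or more were present at 46 X summits for GA and at 104 for CA.

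**Figure D5:**
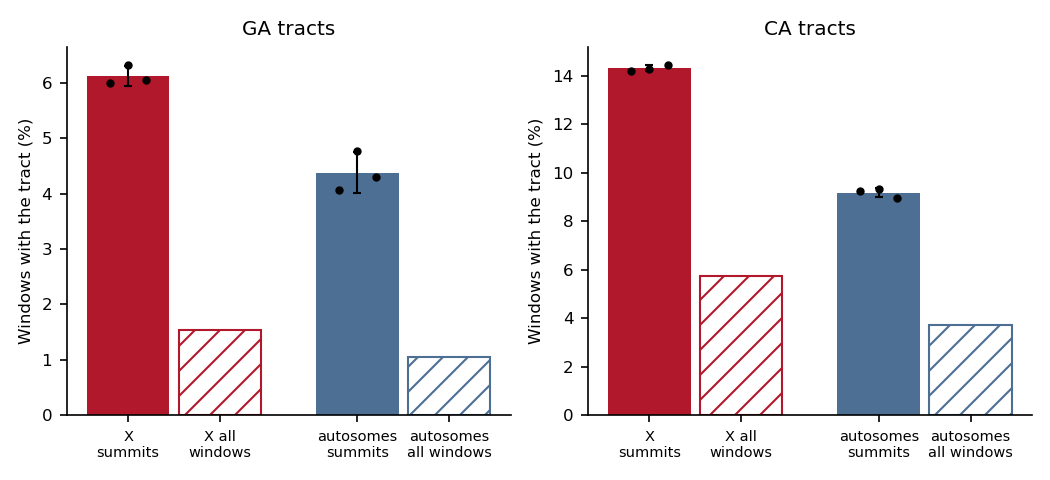
Share of windows holding a GA tract (left) or a CA tract (right) (%, y axes) around summits (filled bars, mean and SD of 3 replicates with points) and among all windows of the same length on the arms (hatched bars), for X and the autosomes (x axis). Summits exceed windows on X and on the autosomes, and X exceeds the autosomes in filled and hatched bars alike.

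Receptor motifs were at similar or lower shares of summits on X. The palindromic element was matched at 0.400% of X summits and 0.457% of autosomal ones, and in replicates 1, 2 and 3 at 0.462%, 0.399% and 0.410% on X against 0.443%, 0.446% and 0.444%, a difference within the spread (−0.0208 ± 0.0346 points, exact sign-flip p = 0.5). All windows of X held it more often than those of the autosomes, 0.0342% against 0.0275%. Summits held it 12.4 ± 0.982 times as often as windows on X and 16.2 ± 0.0572 times on the autosomes, and this ratio was lower on X in all 3 replicates, by −3.75 ± 1.02 (exact sign-flip p = 0.25), with 8 X summits behind it in the IDR-thresholded list. The single half-site AGGTCA, which 5.08% of all X windows hold, lay near 5.16% of X summits and 6.48% of autosomal ones. X was lower in all 3 replicates, and its summits held the half-site 1.04 ± 0.0396 times as often as its windows, against 1.16 ± 0.0271 on the autosomes. The promoter elements DRE (TATCGATA) and the M1BP core GGTCACAC, both counted on either strand, were at 1.65% and 1.80% of X summits and at 1.61% and 1.60% of autosomal ones. Over the replicates the X share of DRE was higher in all 3, by 0.234 ± 0.167 points. Set against windows, however, each was lower on X in all 3 replicates, at 2.58 ± 0.518 against 2.97 ± 0.431 times for DRE and 3.61 ± 0.312 against 4.13 ± 0.344 times for the M1BP core. Matches of different motifs may overlap.

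Recurrence in the replicates differed little between X and autosomal summits. Of the 1998 X summits, 1707 (85.4%) had a summit within 100 bp among the strongest of replicate 1, against a background of 87.4% over all 11195 and 87.8% on the autosomes. Per the file headers, replicate 1 was not among the parents of the IDR-thresholded list, while replicates 2 and 3 were. The shares were 84.7% on X and 84.6% on the autosomes for replicate 2, and 88.6% and 90.7% for replicate 3. X was lower in 2 of 3 replicates, by −1.43 ± 1.33 points over all 3 (exact sign-flip p = 0.5). Recurrence followed rank: in replicate 1 it was 98.2% for X and 99.0% for the autosomes at ranks 1 to 2798, and 61.3% and 61.9% at ranks 8397 to 11195.

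X genes were also grouped by role. Of 7 genes of ecdysone and juvenile hormone action on X, 5 held a summit. The bound share was 40.2% over all coding genes on X. It was 62.1% among those of 4998 bp or more, the class of br, Hr4 and gce. Besides br and Hr4, the bound genes were gce, usp and phtm. The juvenile hormone receptor gene gce held 8 summits with a best rank of 816. At usp there were 2 summits with a best rank of 1149, and this best summit also lay 51 bp from a start site of Actn. The ecdysone synthesis enzyme gene phtm (phantom) held 2 with a best rank of 3509. Cyp18a1, which inactivates ecdysone, and Npc1b, of sterol uptake, held none, though Cyp18a1 had 1 summit in replicate 3. The counts were alike in each replicate for usp, with 2 in all 3, and for gce, with 9, 9 and 8. For phtm they were 2, 2 and 1, with best ranks of 4926, 4882 and 10114 in replicates 1, 2 and 3.

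Few genes of dosage compensation and of the sex signal held a summit, but these lists are small and several of their genes short. Of the 3 dosage compensation genes on X, lncRNA:roX1 held 1 summit at rank 11081, near the end of the list, and none in replicates 1 and 2. The gene lncRNA:roX2 and mof, the acetyltransferase of the MSL complex, held none. Of 6 genes of the sex signal and sex determination only Sxl, the master switch of female development, was bound, with 3 summits and a best rank of 884. The X-linked signal elements run, sc and sisA and the splicing factor gene snf held none. Of these, sisA is 779 bp long, and X genes under 1179 bp were bound in 14.4% of cases. The genes sc and snf, of 1438 and 1260 bp, fall in the next length class, where 30.9% of X genes were bound. At 6652 bp, run falls in the longest class, where 62.1% were bound. Of 8 proneural and homeobox genes only ct held a summit, at rank 4985, and ac, ase, B-H1 and B-H2 held none in any replicate. A gene with no summit here may still hold a weaker one below the 11195 strongest.

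Signalling, metabolic and ribosomal genes stood at the other end. Of 17 signalling genes 14 were bound, against 40.2% of all coding genes on X. These 14 were of 4998 bp or more, a class of which 62.1% were bound on X. The best ranked after sgg and Raf were hep, the JNK kinase gene (706), upd3, a cytokine ligand (1841), csw, a tyrosine phosphatase (1956), mew, an integrin subunit (2407), sd, the DNA-binding partner of Yorkie (2849), and N, the Notch receptor gene (3253). N held 8 summits and varied most, with 4, 11 and 6 in the replicates. The genes dsh, fu and upd2, the only members under 4998 bp, held none, though fu had 1 summit in replicate 3. In replicates 1, 2 and 3 the counts of bound signalling genes were 12, 14 and 13. The bound genes hop and bi, of best ranks 10260 and 9969, had a summit in replicate 2 only.

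Of 7 genes of metabolism and fat body 6 were bound. Beside these and the ribosomal genes below stands the 40.2% of all coding genes on X. It is not a share for genes of like length. Lsd-2, Zw and schlank were of 4998 bp or more, a class of which 62.1% were bound on X. The other metabolic genes and every ribosomal gene were shorter, and in the shorter classes 14.4% to 43.8% of X genes were bound. The glycolytic genes Gapdh2 and Hex-A had best ranks of 253 and 417, Zw, of the pentose phosphate pathway, 567, schlank, a ceramide synthase gene, 727, Lsd-2, of the lipid droplet, 842, and Pgd 4618. The larval serum protein gene Lsp1alpha held none. Of the 13 cytoplasmic ribosomal protein genes on X 12 were bound, RpS10b being the exception, but with no strong summit: the best was RpS28b at rank 4256, followed by RpS19a at 4729, RpL36 at 5539, RpL22 at 5973, RpS15Aa at 6045, RpS5a at 6759, RpL35 at 6767 and RpS14b at 6813. In replicates 1, 2 and 3 the counts of bound ribosomal genes were 12, 12 and 11. Hormone and metabolic genes had median best ranks of 816 and 647 among bound members, and the ribosomal genes 6763. A best rank is taken over all summits of a gene, and their numbers were unequal, as 29 at Hr4 and 2 at RpS28b show. No genes of like length were set beside these medians, so they do not compare binding strength between the groups.

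The growth, neuronal, colour and bristle groups were mixed. Beside them stand the 40.2% of all coding genes on X and the 62.1% of those of 4998 bp or more. Growth and cell cycle genes were bound in 5 of 8 cases, led by Mnt at rank 171, then fs(1)h, a bromodomain protein gene (4733), Myc (6004), trr, a histone methyltransferase gene (8214), and rictor (10429), with none at CycD, Rbf and S6kII. Of 16 neuronal genes 6 were bound, namely norpA (1088), elav (1466), rut (5550), dnc (6300), shi (8166) and Nrg (8632), and the long genes cac, eag, Fas2 and Appl had none, apart from 1 at Appl in replicate 3. Of 9 eye and body colour genes 4 were bound, ras (1520), cm (4979), rb (8628) and dor (9878), and car, g, v and w were not. Bristle and wing genes were bound in 4 of 7 cases, sn (3039), Bx (3175), dy (3613) and fw (4072), with none at cv, f and m, though cv had 1 in replicates 2 and 3 and m 1 in replicate 2. In the replicates 4, 6 and 5 of these bristle and wing genes were bound. Of the bound genes of the growth, neuronal and colour groups, rictor had a summit in replicate 1 only. The genes shi and rb had none in replicate 2, and dor had none in replicate 3.

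Of 6 salivary gland secretion genes, the glue gene Sgs4 and its neighbour Pig1 shared 1 promoter summit at rank 6300, which also lies inside dnc and was present in all 3 replicates. The genes ng1, ng2, ng3 and ng4 held none. Of 13 yolk, eggshell and ovary genes 4 were bound, ovo (3487), Cp7Fa (7427), Yp3 (8346) and fs(1)N (8858), while Cp36, Cp38, Cp7Fb and Cp7Fc held none. The share of all coding genes on X that were bound, 40.2%, is only a rough measure for these lists, since it ran from 14.4% among the shortest to 62.1% among the longest genes of X. The lists were compiled with earlier results of these data known. For sd, trr, rictor and cm the start site nearest to the best summit was that of another coding gene (PGRP-LE, mRpL16, Vav and sloth2). The same held for rb, fs(1)N and RpS5a (CHOp24, DAAM and Chchd2). It also held for schlank, Lsd-2 and Bx (Josd, dob and CG15047), at 1266, 4280 and 2355 bp from the summit. Such summits cannot be given to either gene alone.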

How the data were processed

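USP-eGFP ChIP-seq peaks of 3 biological replicates of 1 group were analysed. The authors deposited 1 list per replicate, 1 pooled list and 1 IDR-thresholded list in narrowPeak layout. The signal of each peak is the caller's score in the deposited lists and was used only for ranks and description within a list. Per the file headers, alignments were to dm6, and replicates 2 and 3, not replicate 1, were parents of the pooled and IDR-thresholded lists. The IDR-thresholded rows were the 11195 strongest of the pooled list. The sources used here name no aligner, caller or IDR threshold. Every other list held 30000 rows, a limit that is no measure of depth, and read depth is unknown, so no counting interval is given.

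Replicates were cut to their 11195 strongest rows with Python 3.11.15, numpy 2.4.6, pandas 2.3.3 and scipy 1.17.1. Summits were annotated with Ensembl release 115 on dm6 coordinates (99.9% of its start codons read ATG in the genome, and no peak passed a chromosome end), in the order promoter (500 bp), 5′ UTR, coding sequence, 3′ UTR, noncoding exon, intron, intergenic. The sequences are those of the RefSeq release 6 genome. Motifs were sought within 100 bp of a summit and in all windows of 201 bp that tile the arms. Autosomes are arms of chromosomes 2 and 3 and chromosome 4. Differences between X and autosomes were tested over the 3 replicates with an exact two-sided sign-flip test, and the scripts were tested on simulated data. The text names the 15 strongest and 3 weakest X summits, the 15 X genes with most summits, up to 8 bound and 4 unbound genes of each of 13 lists, the 3 fullest and emptiest bins, the 5 fullest intervals, and every palindromic match with the longest tracts. The summits and lists were chosen with earlier results of these data known. Newer symbols stand for older ones: phtm for phm, Raf for phl, lncRNA:roX1 and lncRNA:roX2 for roX1 and roX2. Alternatives are given in the closing section.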

Additional observations from a re-analysis of the deposited data

How the results depend on the processing

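Samples could not be paired between groups because there was only 1 group. X and autosomes were paired within each replicate, and the sign-flip test ran on these paired differences throughout. With 3 replicates the exact test cannot pass 0.05, so it says nothing on stability, and only the direction of X against autosomes was followed, over 129 alternatives, 9 of them added after the data were seen. Of these, 111 kept the direction and 18 reversed it. The differences in rank percentile, intron share, intergenic share, GA tracts and CA tracts reversed under none in the IDR-thresholded list, but over the replicates the rank difference of the first 4 Mb of X was 0.153 ± 1.76, above 0 in replicate 3. The density ratio, 1.02, became 0.893 among the 5597 strongest summits and 0.998 with the strongest summit of each interval, and was 0.988 and 0.989 in the lists of replicates 1 and 3. Leaving out each replicate gave 0.988 to 1.01. The promoter share difference, 0.168 points, became −4.60 among the 5597 strongest, −0.392 with promoters of 1000 bp and −1.74 and −1.10 in the lists of replicates 1 and 3, and leaving out each replicate gave −1.42 to −0.391, where the mean of all 3 was −0.842 already. The 4 reversals on leaving out a replicate, in density and promoter share, are thus means of replicates set against the IDR-thresholded list. The palindromic element difference, −0.0563 points, became 0.164 among the 5597 strongest, 0.0896 with windows of 200 bp and 0.0183 in the list of replicate 1. The recurrence difference, −2.34 points, was 0.0919 in the list of replicate 2. The difference in summits per interval, 0.0254, became −0.00496 in the full list. The bound gene difference, 5.25 points, was −2.33 among the shortest of 4 length classes of genes. For these reversals the cause was not tested. GA and CA tract differences ranged from 0.587 to 3.17 and from 2.44 to 8.89 points with the window and tract length, and the intron share difference reached 7.49 points among the 5597 strongest.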
